A study of Mus musculus with 2 samples.

Results

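The 8 retinoid genes Aldh1a1, Aldh1a2, Aldh1a3, Rbp4, Crabp1, Rara, Rarb and Rxra were followed through the cells of isolated mouse islets, out of 31053 genes counted. They were taken by name, with earlier results of these data known. All 8 had at least 1 unique molecular identifier (UMI, the tag of a single captured transcript). Droplet single-cell RNA sequencing had been performed on islets of male wild-type C57/B6 mice (WT, on standard chow by the study's methods) and of male C57/B6 mice on a high-fat diet (HFD, 60% of kcal from fat over 10 weeks, begun at 6 weeks of age). All mice were 16 weeks old, no transgene or deletion was present in either group, and the islets of 4 mice went into the single library of each group. Diet, islet preparation and library therefore cannot be told apart, no test between the groups was possible, and every interval below is a 95% interval that covers counting error only.

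Retinoids derive from vitamin A. Retinol travels in blood bound to retinol-binding protein 4 (RBP4) and transthyretin (TTR), dehydrogenases oxidize it to retinaldehyde, and the ALDH1A enzymes oxidize retinaldehyde to retinoic acid. Retinoic acid binds nuclear receptors of the RAR family, which act on DNA as partners of RXR receptors, and CYP26 enzymes break it down. In the islet field ALDH1A3 is best known as a marker of β cells that have lost part of their mature identity, and RBP4 as a secreted carrier made in quantity by the liver.

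Barcodes with at least 500 genes and at most 20% mitochondrial UMIs were kept, without a maximum of UMIs, and the highest doublet scores were left out. This gave 2493 WT cells and 6673 HFD cells. The libraries shared 9 barcode sequences, 3 of them among kept cells. Cells were deeper in WT than in HFD in each class compared here. In β-like cells the median was 28640.5 UMIs in WT and 11902.5 in HFD, and in δ-like cells 7337 and 3211. Clusters were named from marker genes, with all markers of the β, α, δ, endothelial, fibroblast, ductal and macrophage lists detected in both libraries. The β-like class held 2000 WT and 5854 HFD cells, the α-like class 53 and 166, and the δ-like class 60 and 155. The endothelial-like class held 96 and 78, the fibroblast-like class 59 and 23, the ductal-like class 57 and 34 and the macrophage-like class 40 and 45. Ratios were taken only in these 7 classes. The γ-like class (13 and 30 cells), T-like class (13 and 168), acinar-like class (10 and 4) and Schwann-like class (7 and 4) were too small in at least 1 library. The WT T-like cells had UMIs of only 2 of their 6 markers. Clusters 21, 22 and 25 stayed unnamed. Clusters 21 and 22 carried the pericyte gene Rgs5 together with the endothelial genes Plvap and Kdr, and cluster 25 carried immunoglobulin and neutrophil genes. The β-like cells of the libraries lay in different clusters. WT cells were mostly in clusters 0, 3, 4 and 5, and HFD cells in clusters 2, 6, 8, 9, 10, 11 and 12, while cluster 1 held 159 WT and 308 HFD cells. With finer clusters the endothelial-like cells of the libraries lay mostly apart, 82 WT and 4 HFD cells in a first cluster and 15 and 74 in another. Retinoid genes and the main hormone genes took no part in the clustering.

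Gene positions are those of GENCODE on GRCm38. Aldh1a1 spans chromosome 19 from 20492715 to 20643465 on the plus strand and Aldh1a2 chromosome 9 from 71215789 to 71296243 on the plus strand. Aldh1a3 spans chromosome 7 from 66390890 to 66427517 on the minus strand. Rbp4 spans chromosome 19 from 38116629 to 38125281 on the minus strand, and Crabp1 spans chromosome 9 from 54764748 to 54773110 on the plus strand. The receptor genes Rara, Rarb and Rxra lie on chromosome 11 from 98927818 to 98974942 (plus), chromosome 14 from 16430839 to 16819156 (minus) and chromosome 2 from 27676440 to 27762957 (plus). Aldh1a1, Aldh1a2 and Rarb overlap genes of the other strand, and Rara overlaps the annotated gene Gm22061 on its own strand. The near copy of Aldh1a1, Aldh1a7, had 2 UMIs in all named classes, so few reads were assigned to it, and reads fitting both genes are not among the counts of either.

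RefSeq promoter windows of 300 bases (250 before and 50 after a start, GRCm38.p6) were at hand for 7 of the members, 13 windows in all, and not for Aldh1a3. They were searched on both strands for a direct repeat of a core site of the RAR and RXR receptors, GTTCANNNNNNGTTCA, and for the TATA box TATAAA, which do not overlap each other. The direct repeat was in 25 of all 32851 windows (0.0761%), and the TATA box was in 4473 (13.6%). Among the 13 windows, the repeat was in that of Rarb alone, beginning 52 bases before the start. The TATA box was in 1 of the Rbp4 windows alone, beginning 28 bases before the start. The repeat was searched in 1 spelling at 1 spacing only, so windows without it may hold other forms of the site. A match in the Rarb promoter was known beforehand and is not a finding. The Rarb and Rbp4 stretches are shown because Rarb is the textbook gene with a retinoic acid response element in its promoter and Rbp4 was the member with the most UMIs. Each line gives the 120 bases before the start, 5′ to 3′ on the minus strand, with the matched letters in capitals.
Rarb, chr14:16575477-16575596: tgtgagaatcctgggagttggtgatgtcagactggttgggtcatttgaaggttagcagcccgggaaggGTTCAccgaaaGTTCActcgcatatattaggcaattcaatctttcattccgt
Rbp4, chr19:38124812-38124931: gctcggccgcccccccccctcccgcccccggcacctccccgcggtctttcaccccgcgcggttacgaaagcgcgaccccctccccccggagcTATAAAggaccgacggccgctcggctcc
A match describes the letters of a window and says nothing of binding in these cells.

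Levels are given as CPM, the UMIs of a gene for every 1000000 UMIs of the same cells. The members fell to different cell types. In HFD Aldh1a3 was almost wholly in β-like cells. In WT its β-like level, 0.806 CPM, was below the 6.74 CPM of δ-like cells, which rested on 4 UMIs. Rbp4 was in the endocrine classes with δ-like cells far ahead, and Aldh1a1 and Aldh1a2 in fibroblast-like and ductal-like cells. Rarb was in endothelial-like cells and their unnamed neighbours, Rara and Rxra were spread over many classes, and Crabp1 was nearly absent.

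**Figure D1:**
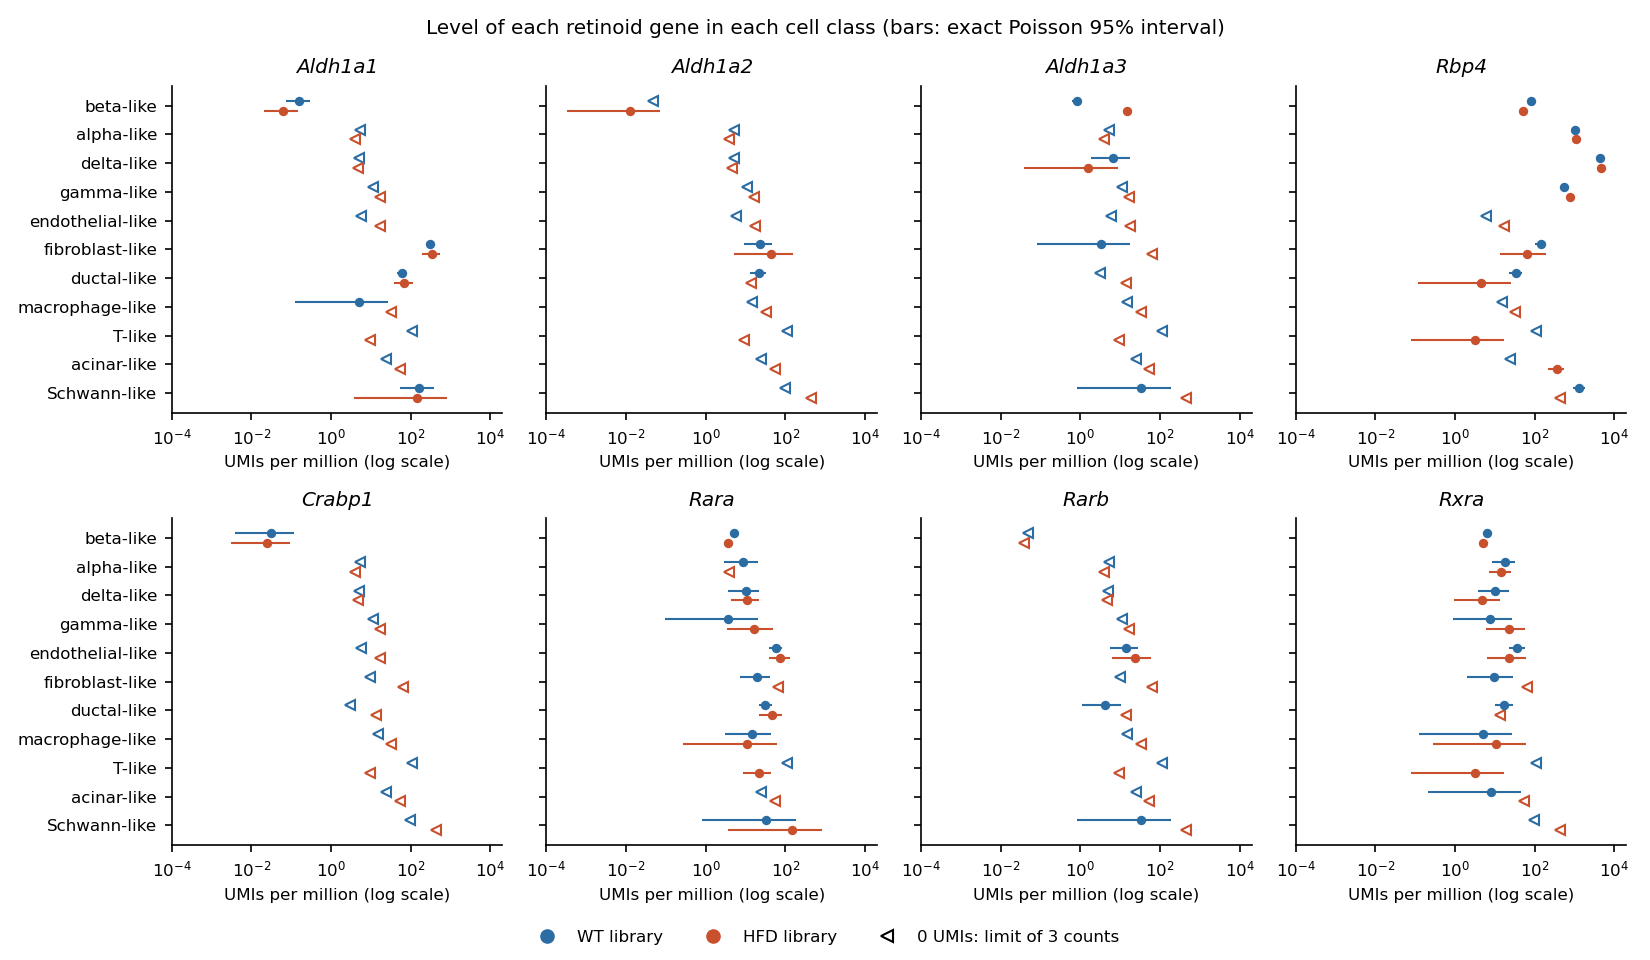
CPM (log axis) of each of the 8 genes in each cell class, WT in blue and HFD in orange, with exact Poisson 95% intervals as bars and open triangles for classes with 0 UMIs, drawn at the limit that 3 counts would set. In δ-like cells Rbp4 reached 4414 CPM (WT) and 4455 CPM (HFD), and Aldh1a3 in β-like cells went from 0.806 to 15.1 CPM.

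Aldh1a3, the ALDH1A enzyme known from β cells under metabolic stress, had 57 UMIs among all kept WT cells and 1197 among all kept HFD cells. Of these, 51 and 1195 were in β-like cells. The β-like level was 0.806 CPM (0.600 to 1.06) in WT and 15.1 CPM (14.3 to 16.0) in HFD, a ratio of 18.8 (14.2 to 25.4). The intervals of the libraries lay far apart. In β-like cells 1.71% of 13491 genes with at least 20 UMIs were at least 2-fold higher in HFD and 2.92% at least 2-fold lower, and Aldh1a3 was the only 1 of the 4 members with that many UMIs to pass either fold. The ratio ranged from 4.15 to 4.60 on the log2 scale over all alternatives run for it. These are point values, and with at most 15000 UMIs per cell the interval was wide (4.60, 2.12 to 9.91).

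Outside the β-like class Aldh1a3 was at or near the limit of detection. HFD α-like cells had 0 UMIs in 762905, which allows up to 3.93 CPM, and HFD δ-like cells had 1 UMI. WT δ-like cells had 4 UMIs (6.74 CPM, 1.84 to 17.3), an interval that lay above that of WT β-like cells. In WT this put the δ-like, fibroblast-like and β-like classes in an order whose neighbours were not separated by counting error. In HFD the β-like class stood apart from the next class, δ-like at 1.54 CPM (0.0390 to 8.58).

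The HFD signal was spread over many cells. Among 5854 HFD β-like cells 784 had at least 1 Aldh1a3 UMI, 237 at least 2, 95 at least 3 and 19 at least 5, and the highest cell had 8. The 10 highest cells held 5.44% of the UMIs. In WT 36 of 2000 cells had a UMI and the highest had 4. The share of cells with a UMI was 1.80% in WT and 13.4% in HFD as counted. With every cell thinned to 2000 UMIs it was 0.105% (0.0127 to 0.377) of 1912 WT cells and 2.69% (2.29 to 3.14) of 5842 HFD cells, with 88 and 12 shallower cells left out. Endothelial-like cells, in which the gene was not detected, had 0 of 91 and 0 of 39 thinned cells with a UMI, which allows 3.30% and 7.69% and so sets no background below the HFD β-like share. Their median depth was 4212.5 UMIs in WT and 2004 in HFD. The α-like cells gave a closer limit, with 0 of 53 WT and 0 of 162 HFD thinned cells, the latter allowing 1.85%, at median depths of 10203 and 4193.5 UMIs.

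HFD β-like clusters differed in Aldh1a3. Cluster 8, led by Dapl1, Iapp, Derl3 and Pdyn, was highest at 27.7 CPM (25.4 to 30.2, 525 UMIs in 912 cells). Clusters 12, 10 and 1 followed at 17.2, 16.5 and 16.0 CPM and were not separated from each other by counting error. Cluster 6 was at 11.9, cluster 9 at 7.36 and cluster 11 at 5.12 CPM. Cluster 2, led by Trpm5, Ppp1r1a and Ucn3, was lowest among the large HFD clusters at 2.24 CPM (1.44 to 3.34, 24 UMIs in 903 cells). Ucn3, a marker of mature β cells, was also among the leading genes of clusters 6 and 12. The WT clusters 0, 3 and 4 were at 0.612, 0.421 and 0.616 CPM, below each of these. In cluster 1, which both libraries shared, the level was 2.16 CPM in WT (1.18 to 3.63) and 16.0 in HFD (12.8 to 19.9), a ratio of 7.41 (4.18 to 14.2). In the other β-like clusters together the ratio was 23.2 (16.7 to 33.1). Since the clusters were made from these cells, the order of clusters is a description.

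**Figure D2:**
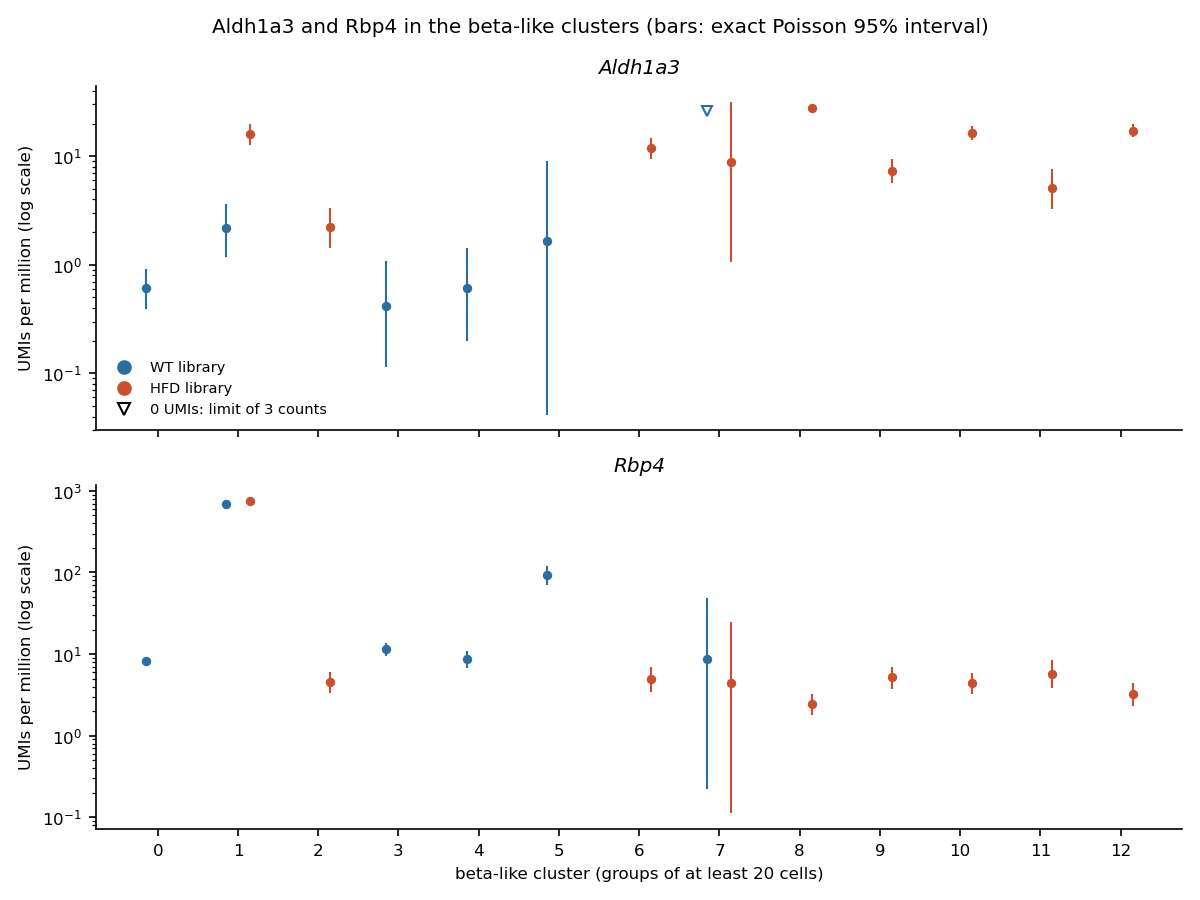
CPM (log axis) of Aldh1a3 and Rbp4 in each β-like cluster with at least 20 cells of a library, WT in blue and HFD in orange, with exact Poisson 95% intervals. Aldh1a3 ran from 2.24 CPM in HFD cluster 2 to 27.7 in HFD cluster 8, and Rbp4 stood at 695 and 741 CPM in cluster 1 against 8.33 in WT cluster 0.

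Depth differed between the libraries, so β-like cells were also divided by UMIs per cell. In cells of 5000 UMIs or fewer, HFD Aldh1a3 was 3.59 CPM. It was 11.2 CPM in the next division, which ended at 10000 UMIs, then 14.8 CPM (ending at 15000), 16.0 CPM (ending at 30000) and 24.6 CPM in the deepest cells. WT cells had 0 UMIs in the lowest 2 divisions and 0.964, 0.602 and 0.893 CPM in the others. The intervals of the libraries did not overlap in any division above 5000 UMIs. Within HFD the level was higher in deeper cells, and the part of cluster, cell size or state in that was not tested.

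**Figure D3:**
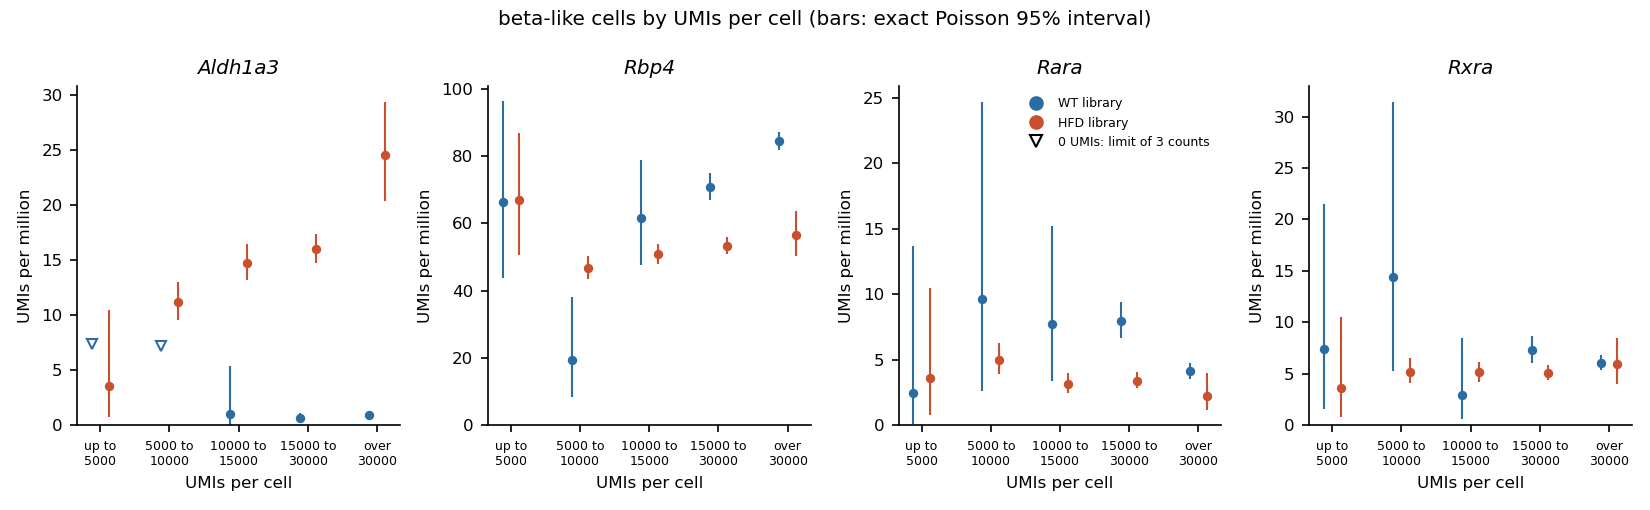
CPM of Aldh1a3, Rbp4, Rara and Rxra in β-like cells divided by UMIs per cell, WT in blue and HFD in orange, with exact Poisson 95% intervals and triangles at the limit of 3 counts where no UMI was found. HFD Aldh1a3 went from 3.59 CPM in the shallowest to 24.6 CPM in the deepest cells, while WT stayed below 1 CPM wherever it was detected.

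Whether Aldh1a3 and Rbp4 fell in the same β-like cells could not be settled at this depth. Thinned to 2000 UMIs, Rbp4 was found in 4 of 157 HFD β-like cells with Aldh1a3 (2.55%, 0.698 to 6.39) and in 233 of 5685 without it (4.10%, 3.60 to 4.65). Thinned to 5000 UMIs it was found in 23 of 328 cells with Aldh1a3 (7.01%, 4.497 to 10.3) and in 280 of 5301 without it (5.28%, 4.70 to 5.92). The order turned with the depth, and the intervals overlapped at both.

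Aldh1a1, the family member widely used as a stem cell marker, was found in fibroblast-like and ductal-like cells. Fibroblast-like cells had 95 UMIs in WT (306 CPM, 248 to 374) and 16 in HFD (340 CPM, 194 to 552), a ratio of 1.11 (0.610 to 1.90). Ductal-like cells had 59 UMIs (60.0 CPM, 45.7 to 77.4) and 15 UMIs (68.7 CPM, 38.5 to 113), a ratio of 1.15 (0.603 to 2.04). Among classes of at least 20 cells, the fibroblast-like level was separate from the ductal-like level in both libraries, and the ductal-like level from the next class. The signal came from many cells, 42 of 59 WT and 10 of 23 HFD fibroblast-like cells and 26 of 57 WT and 11 of 34 HFD ductal-like cells. The 7 WT Schwann-like cells had 5 UMIs (164 CPM, 53.1 to 382), an interval that overlapped both, and the 4 HFD cells had 1. The β-like class had 10 UMIs in WT and 5 in HFD, below 0.2 CPM in each library, and α-like, δ-like and endothelial-like cells had 0 in both.

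Aldh1a2, the enzyme that makes most retinoic acid in the embryo, was rarer. WT ductal-like cells had 21 UMIs over 12 of 57 cells (21.4 CPM, 13.2 to 32.7), and WT fibroblast-like cells had 7 UMIs over 6 of 59 cells (22.6 CPM, 9.07 to 46.5). These classes were not separated by counting error. In HFD the fibroblast-like cells had 2 UMIs, both in a single cell, and the 34 ductal-like cells had 0, which allows 13.7 CPM. The upper end of the interval of the HFD to WT ratio was 0.865. Without its highest cell the WT ductal-like level was 16.9 CPM. In β-like cells Aldh1a2 had 0 WT UMIs and 1 HFD UMI.

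Rbp4, the retinol carrier, was highest in δ-like cells, which make somatostatin. They had 2618 UMIs in WT (4414 CPM, 4247 to 4587) and 2893 in HFD (4455 CPM, 4294 to 4620), a ratio of 1.01 (0.957 to 1.06). All 60 WT and 154 of 155 HFD δ-like cells had a UMI. The level per cell in WT ran from 184 CPM through a median of 4033 to 18836, and in HFD from 0 through 4641 to 15025. The groups overlapped almost wholly. The ratio moved to 0.33 on the log2 scale with finer clusters and to -0.18 with at most 15000 UMIs per cell, so its direction was not fixed. The δ-like class also carried other hormones. The glucagon gene Gcg stood at 52299 CPM in WT and 72763 in HFD. The pancreatic polypeptide gene Ppy stood at 35022 and 49459 CPM, beside 120923 and 108485 CPM of the somatostatin gene Sst. Whether these droplets held 1 cell or several was not tested.

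The α-like cells, which make glucagon, had 597 UMIs (1047 CPM, 965 to 1135) in WT and 845 (1108 CPM, 1034 to 1185) in HFD, a ratio of 1.06 (0.951 to 1.18). UMIs were found in 53 of 53 WT and 150 of 166 HFD cells, and the median cell stood at 934 CPM in WT and 970 in HFD. The α-like level was separate from the δ-like level in both libraries. Rbp4 in α-like cells was also present where somatostatin (Sst) was low. Whether it varied with Sst from cell to cell was not tested. There were 1866 Rbp4 UMIs per 1000 Sst UMIs in WT and 675 in HFD α-like cells, against 36.5 and 41.1 in δ-like cells. In the 52 WT and 161 HFD α-like cells with under 1% Sst the level was 1052 and 1051 CPM. The α-like class also carried Ppy, at 56758 CPM in WT and 28971 in HFD. The part of other hormone cells in its Rbp4 level was not tested. The γ-like cells, which make pancreatic polypeptide, had 151 UMIs in 13 WT cells (554 CPM, 469 to 650) and 141 in 30 HFD cells (782 CPM, 658 to 922). In the 10 WT and 28 HFD γ-like cells with under 1% Sst it was lower, 318 CPM (242 to 411) and 550 CPM (442 to 676).

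With every cell thinned to 2000 UMIs, Rbp4 was found in 98.3% of WT and 96.6% of HFD δ-like cells and in 71.7% and 79.0% of α-like cells. It was found in 6.01% (4.99 to 7.18) of WT and 4.06% (3.57 to 4.59) of HFD β-like cells. Unthinned, the β-like shares were 15.3% and 7.23%. Endothelial-like cells had 0 Rbp4 UMIs in 517749 WT and 174068 HFD UMIs, in 91 and 39 thinned cells.

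In the β-like class Rbp4 had 5065 UMIs in WT (80.1 CPM, 77.9 to 82.3) and 4085 in HFD (51.8 CPM, 50.2 to 53.4), a ratio of 0.647 (0.620 to 0.674). Most lay in cluster 1, with 4495 WT UMIs (695 CPM) and 3790 HFD UMIs (741 CPM). Cluster 1 carried other hormones beside insulin. Its Sst level was 11906 CPM in WT and 11929 in HFD, against 92.5 and 33.4 CPM in the other β-like clusters, and its cells held 58.3 and 62.1 Rbp4 UMIs per 1000 Sst UMIs. Whether these droplets hold 1 cell or several was not tested. Within cluster 1 the ratio was 1.07 (1.022 to 1.11).

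Without cluster 1 the β-like clusters had 570 WT and 295 HFD Rbp4 UMIs, a ratio of 0.398 (0.345 to 0.459). The level was 8.33 CPM in WT cluster 0, 11.5 in cluster 3 and 8.63 in cluster 4, and between 2.43 in cluster 8 and 5.76 in cluster 11 among the HFD clusters. Sst moved the same way in these cells, from 92.5 to 33.4 CPM, and its part in the Rbp4 difference was not tested. The low-UMI WT cluster 5 stood apart at 91.9 CPM (69.4 to 119). By depth, the WT level exceeded the HFD level in cells with 15000 to 30000 UMIs (70.9 against 53.4 CPM) and above 30000 UMIs (84.6 against 56.7 CPM). With at most 15000 UMIs per cell the log2 ratio was -0.10, with an interval of -0.39 to 0.20. Cells of 10000 to 15000 UMIs stood at 61.7 CPM in WT (80 cells) and 50.8 in HFD, with overlapping intervals. The parts of depth and of cluster 1 in the β-like difference were not separated. The division from 5000 to 10000 UMIs held 56 WT cells and ran the other way, with 19.3 CPM in WT and 46.8 in HFD.

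Outside the endocrine classes Rbp4 came mostly in single droplets. All 33 WT ductal-like UMIs were in 1 cell that also held 407 of the 413 Sst UMIs of its class, and the other ductal-like cells had 0. In WT Schwann-like cells 39 of 40 UMIs were in 1 cell with 100 Sst UMIs, and in HFD acinar-like cells 19 of 20 were in 1 cell with 440 Sst UMIs. Fibroblast-like cells differed from these. Their 44 WT UMIs (142 CPM, 103 to 190) lay in 23 of 59 cells, with 6 in the highest, and the whole class had 4 Sst UMIs. In HFD 3 UMIs lay in 2 of 23 cells (63.7 CPM, 13.1 to 186), a ratio of 0.449 with an interval of 0.0892 to 1.40.

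Crabp1, a cytosolic carrier of retinoic acid, had 2 UMIs in each library, all in β-like cells, each in a different cell. This is 0.0316 CPM in WT and 0.0254 CPM in HFD. In no other class was it found, with limits of 3.05 CPM in WT ductal-like cells and 3.93 CPM in HFD α-like cells. At this depth no cell type could be named as its source.

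In each library, among classes of at least 20 cells, the receptors had their highest point values in endothelial-like cells. Counting error did not separate these values from the next class. Rara, the most widely expressed RAR, had 30 UMIs in WT endothelial-like cells (57.9 CPM, 39.1 to 82.7) and 13 in HFD (74.7 CPM, 39.8 to 128), a ratio of 1.29 (0.617 to 2.55). Ductal-like cells followed with 31 UMIs (31.5 CPM) and 10 UMIs (45.8 CPM), not separated from endothelial-like cells by counting error. HFD T-like cells were at 21.6 CPM (8.68 to 44.5). Among the 7 WT classes of at least 20 cells the β-like level was lowest, 5.19 CPM (4.64 to 5.78), and was 3.55 CPM (3.15 to 3.99) in HFD, a ratio of 0.685 (0.582 to 0.805). Within the cells of 15000 to 30000 UMIs it was 7.94 CPM in WT (6.64 to 9.42) and 3.37 in HFD (2.80 to 4.02). Above 30000 UMIs it was 4.09 (3.52 to 4.72) and 2.24 (1.12 to 4.00), with overlapping intervals. In cells of at most 15000 UMIs the interval of the β-like log2 ratio held 0 (-0.84, -1.66 to 0.098).

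Rarb, the RAR gene whose promoter is shown above, was not found in β-like cells, with 0 UMIs in 63256443 WT and 78885139 HFD UMIs. These zeros allow 0.0474 and 0.0380 CPM. Of its 25 WT and 9 HFD UMIs among kept cells, 7 and 4 were in endothelial-like cells, each UMI in a cell of its own (13.5 CPM, 5.44 to 27.9, and 23.0 CPM, 6.26 to 58.8). The unnamed cluster 21 had 11 UMIs in 38 WT cells (17.8 CPM) and 1 in 4 HFD cells, and cluster 22 had 2 in 34 WT and 4 in 72 HFD cells. WT ductal-like cells had 4 UMIs. Over clusters 14, 21 and 22 together Rarb was at 14.1 CPM in WT (8.62 to 21.8) and 15.3 in HFD (6.97 to 29.0), a ratio of 1.08 (0.433 to 2.48). Over the same clusters the Rara ratio was 1.37 (0.887 to 2.08) and the Rxra ratio 0.8004 (0.404 to 1.495). Most WT cells of the unnamed pair lay in cluster 21 and most HFD cells in cluster 22.

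Rxra, the common partner of the RARs and of other nuclear receptors, was found in many classes. In WT it ran from 4.88 CPM in macrophage-like cells to 36.7 CPM (22.1 to 57.3) in endothelial-like cells. No class was separated from its neighbour in that order, but the endothelial-like interval lay above the β-like interval. In β-like cells Rxra was 6.36 CPM (5.75 to 7.01) in WT and 5.13 (4.65 to 5.66) in HFD, a ratio of 0.808 (0.702 to 0.930). The interval of the log2 ratio held 0 in cells under 1% other hormones (-0.20, -0.42 to 0.0099) and in cells of at most 15000 UMIs (-0.34, -1.17 to 0.64). Above 30000 UMIs per cell the level was 6.01 CPM in WT and 5.89 in HFD. Endothelial-like cells had 19 and 4 UMIs, a ratio of 0.626 (0.155 to 1.88), and α-like cells 10 and 11, a ratio of 0.822 (0.317 to 2.16). WT ductal-like cells had 17 UMIs (17.3 CPM) and HFD ductal-like cells 0, for which the upper end of the ratio's interval was 1.09, so the difference was not separated from counting error. In cluster 1 the β-like ratio was 0.511 (0.300 to 0.842) and in the other β-like clusters 0.852 (0.735 to 0.989).

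**Figure D4:**
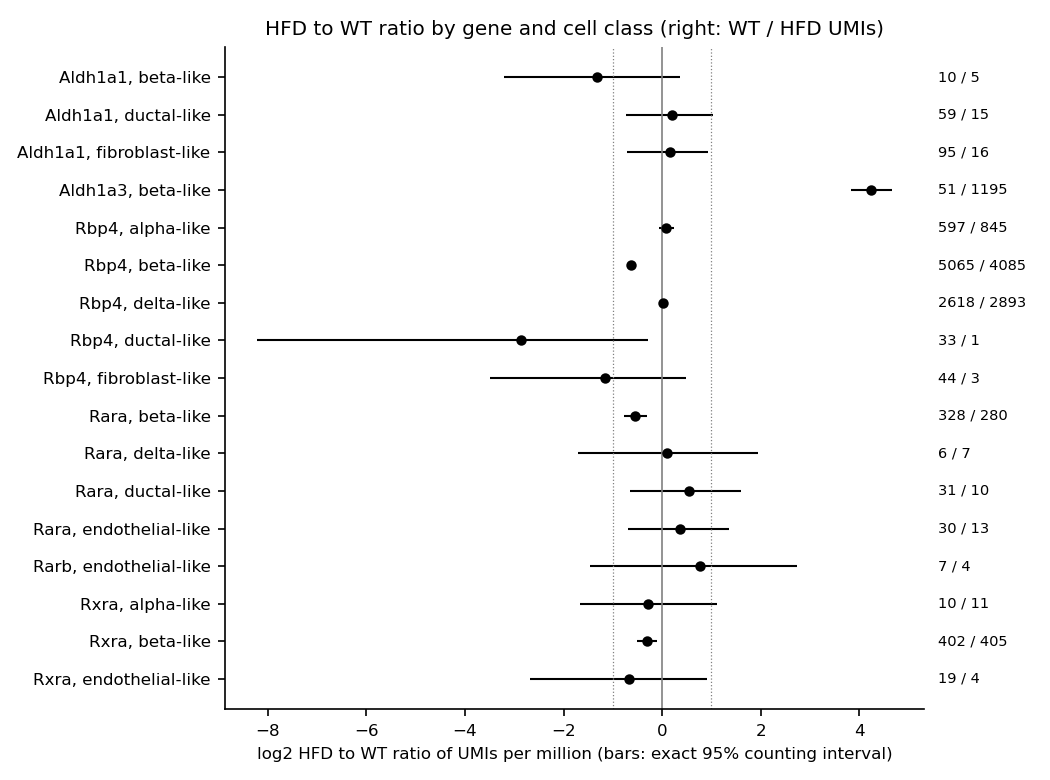
The log2 HFD to WT ratio of CPM for each gene and class with at least 10 UMIs and with UMIs in both libraries, with exact 95% counting intervals as bars, dotted lines at 2-fold and the WT and HFD UMIs at the right. Aldh1a3 in β-like cells, 4.23, lies to the right of all others, and the intervals of Rbp4 in α-like and δ-like cells hold 0.

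Past 2-fold, members were few in the other classes. In α-like cells 0 of 2 members with at least 20 UMIs passed, where 1.68% of all genes were higher and 6.55% lower in HFD. In δ-like cells it was 0 of 1, with 1.62% of all genes higher and 4.26% lower. In endothelial-like cells it was 0 of 2, with 4.31% higher and 10.6% lower. In ductal-like cells 1 of 4 was lower, Rbp4 with its single cell, where 3.27% of all genes were higher and 14.8% lower. In fibroblast-like cells 1 of 2 was lower, Rbp4 again with 3 HFD UMIs, where 6.86% were higher and 14% lower. These shares are high in small classes, and the 2 members past the fold there were not read as results.

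A wider list of 49 other retinoid genes among those counted was followed by role. In β-like cells 29 of them had at least 20 UMIs. Of these 0 were at least 2-fold higher in HFD and 1 was lower, beside 1.71% and 2.92% of all genes. The median log2 ratio of the 29 genes was -0.13, beside -0.04 for all genes tested. Retinol uptake and transport was led by Ttr, the partner of RBP4 in blood, with 894 CPM in WT and 1637 in HFD β-like cells, a ratio of 1.83 (1.81 to 1.85). The α-like cells had 23053 CPM in WT and 36138 in HFD (ratio 1.57), and the δ-like cells 4632 and 8709 CPM (ratio 1.88). It was lower in HFD ductal-like cells, at 400 and 170 CPM (ratio 0.424, 0.294 to 0.595). Dgat1, which stores retinol and other lipids as esters, was at 4.25 and 4.51 CPM in β-like cells. Lrat, the main retinol esterifying enzyme, had 0 UMIs in each class.

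Among carotenoid enzymes, Bco1, which splits β-carotene into retinaldehyde, was at 3.37 and 4.34 CPM in β-like cells (ratio 1.29, 1.08 to 1.54), and Bco2 at 0.601 and 0.583 CPM. In δ-like cells Bco1 had 6 and 14 UMIs, the only listed gene there past 2-fold, with an interval of 0.769 to 6.77. The retinol and retinaldehyde dehydrogenases with most β-like UMIs were Dhrs4 (30.5 and 23.2 CPM, ratio 0.761), Rdh14 (17.3 and 20.7 CPM, ratio 1.19) and Adh5 (20.3 and 17.8 CPM, ratio 0.881). Rdh10, named after its values were seen, which makes retinaldehyde for the ALDH1A enzymes, was at 2.89 and 2.66 CPM (ratio 0.920, 0.751 to 1.13). Aldh2 was at 12.9 and 12.4 CPM, Aldh1b1 at 1.33 and 0.900 CPM, and Aldh8a1 had 2 UMIs in each library. None of these passed 2-fold.

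Of the retinoic acid carriers, Fabp5 was at 3.92 and 3.93 CPM in β-like cells and Crabp2 had 5 UMIs in all. Of the breakdown enzymes, Cyp26b1 had 6 UMIs in β-like cells, Cyp26a1 had 2 and Cyp26c1 had 0. In endothelial-like cells Cyp26b1 had 56 UMIs in WT (108 CPM) and 5 in HFD (28.7 CPM), a ratio of 0.266 (0.0830 to 0.657). It was the only listed gene of that class past 2-fold, beside the 10.6% of all genes that were lower there. As given above, endothelial-like cells of the libraries parted at finer clustering. Of the other receptors, Rxrb was at 10.3 and 9.37 CPM in β-like cells and Rarg at 2.66 and 1.77 CPM (ratio 0.668, 0.530 to 0.841), while Rxrg had 0 UMIs. The coregulators Ncor1 (95.4 and 84.7 CPM) and Ncoa1 (33.3 and 25.2 CPM) were both lower in HFD by less than 1.5-fold.

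Of the listed target genes, Rarres2, which encodes chemerin, was the 1 gene past 2-fold in β-like cells, with 28 WT UMIs and 1 HFD UMI. In fibroblast-like cells it was at 1215 and 1465 CPM, and the part of fibroblast RNA in the β-like counts was not tested. Tgm2, a transglutaminase, had 20 and 14 UMIs in β-like cells, and Rai14 had 12 and 12. In ductal-like cells Tgm2 was at 132 CPM in WT and 36.7 in HFD (ratio 0.277, 0.117 to 0.563), and in fibroblast-like cells at 235 and 42.5 CPM with 73 and 2 UMIs (ratio 0.180, 0.0215 to 0.676). In ductal-like cells 4 of 16 tested list genes were lower and 0 higher, beside 14.8% of all genes lower and 3.27% higher. The median log2 ratio of the 16 genes was -0.71, beside -0.19 for all genes. In fibroblast-like cells 2 of 9 were lower, beside 14% of all genes. With so few genes tested, these counts were not read as results.

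Some genes of the pathway were far higher in endothelial-like or ductal-like cells than in β-like cells. They were singled out after their values were seen. Rbp7, a retinol-binding protein of vessel cells, was at 809 CPM in WT and 977 in HFD endothelial-like cells and at 0.0474 and 0.0634 CPM in β-like cells. Dhrs3, which reduces retinaldehyde back to retinol, was at 294 and 213 CPM in endothelial-like and 118 and 68.7 CPM in ductal-like cells, and below 0.2 CPM in β-like cells. 

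**Figure D5:**
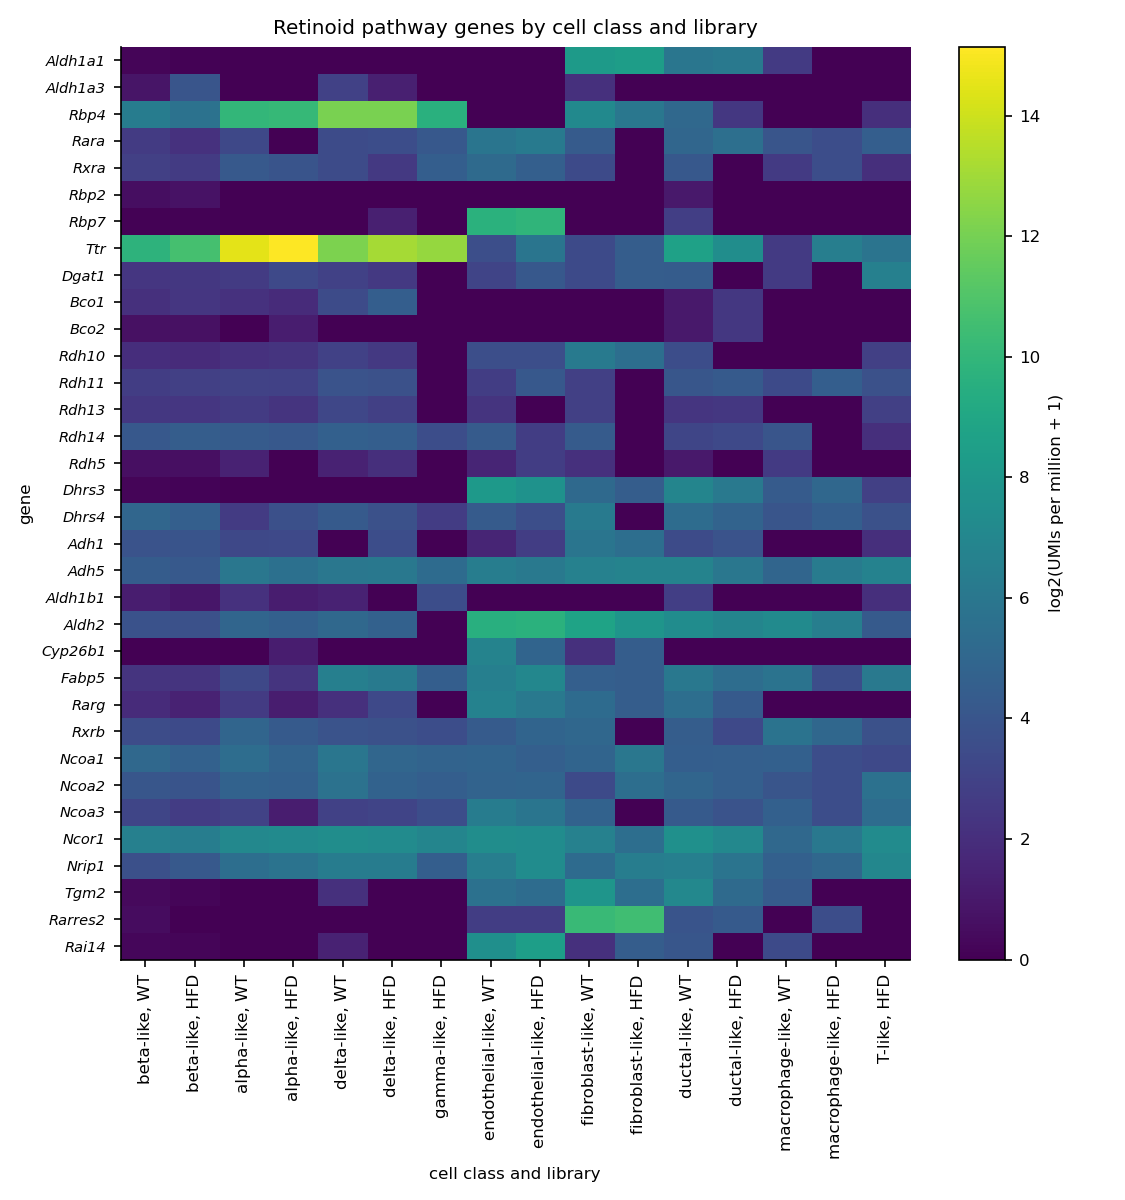
Colour gives log2 of CPM plus 1 for 34 retinoid genes with at least 50 UMIs in the named classes (rows) in the 16 class and library profiles with at least 20 cells (columns). Rbp4 and Ttr are bright in the endocrine columns, Rbp7 and Dhrs3 in the endothelial-like columns, and Aldh1a1 in the fibroblast-like columns.

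Genes most alike in pattern were taken over the same 16 profiles by Pearson's r of log2(CPM + 1), among 9354 or 9355 genes. The profiles share libraries and depth, and r is given as a description. Closest to Aldh1a1 were Cp (0.97), C3 (0.94) and Nfix (0.94). Closest to Rbp4 were Meg3 (0.96), Gprasp2 (0.94) and Isl1 (0.93). Closest to Aldh1a3 were Gcgr (0.81), Otoa (0.80) and Sntg1 (0.79). Closest to Rara were Tbk1 (0.93), Ncoa3 (0.91) and Samd9l (0.91), and closest to Rxra were Tbc1d22a (0.96), Mink1 (0.92) and Pbx2 (0.86).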

How the data were processed

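The authors deposited raw UMI counts for each gene in each called barcode, made with Cell Ranger 3.0.2 on mm10, per the labels, from 3′ libraries of cells from which dead cells had been removed. No later filter of the study had been applied. The WT library held 73843674 UMIs over 3895 barcodes and the HFD library 94375138 over 8951.

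Filters were those given above. Scrublet's own threshold (scanpy 1.11.5) marked 1 WT and 0 HFD barcodes and did not work, so the highest scores were left out, 0.8% per 1000 barcodes (121 WT and 641 HFD barcodes). Both libraries were clustered together (square root of counts scaled to 10000, 2000 variable genes without the retinoid genes, Ins1, Ins2, Gcg, Sst and Ppy, 50 components, 15 neighbours, Leiden resolution 1, igraph 0.11.9). Clusters outside the β class were clustered again on their own variable genes.

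Clusters were named from 18 marker lists. A name needed at least 3 detected markers (a share of at least 0.5 per 10000 and 2 times that in clusters of other candidates). It was withheld where another class had more markers among the top 10 genes or scored at least 0.7 of its highest level. In all 4 versions of this scoring were tried after cluster sizes and leading genes had been seen. The last, which left clusters 21 and 22 unnamed, was made after member counts per cluster had been seen.

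UMIs were summed per class and library. Levels carry exact Poisson intervals, shares exact Clopper-Pearson intervals and ratios exact conditional intervals (95%, scipy 1.17.1). A count of 0 was given the limit of 3 counts. Ratios needed 10 UMIs and 20 cells in each library. Thinning drew 2000 UMIs per cell. The interval and fold steps were tested on simulated data. Members of the wider list were named as the up to 3 with most β-like UMIs per role, plus those with at least 50 UMIs past 2-fold in a class. Genes alike were the 3 of highest Pearson's r. Some genes of the wider list are not reported here by name. The members and lists were chosen with earlier results of these data known. Alternatives were a maximum of 15000 UMIs, doublets kept, 1000 genes, 10% mitochondrial UMIs, other totals and size factors, equal cell weights, purer β-like cells, resolution 2, other folds, and other thinning. Leaving out cluster 1 and leaving out low-UMI β-like clusters were added after seeing the data. The low-UMI clusters were first those under 0.5 of the β-like clusters' median UMIs. Once that result was known, a limit of 5000 UMIs (clusters 5 and 7) was tried too, and both are reported.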

Additional observations from a re-analysis of the deposited data

Results flagged for a closer look

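Aldh1a3 was also higher in the HFD than in the WT barcodes that had been left out. Of these barcodes, the 624 HFD and 107 WT ones that failed on doublet score alone also enter the values with doublets kept. These 2278 barcodes held 201 Aldh1a3 UMIs, 16.1 CPM (14.0 to 18.5). The 1402 WT barcodes left out held 5, 0.835 CPM (0.271 to 1.95). The barcodes failed on genes, mitochondrial share or doublet score, and their cell types were not named.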

How the results depend on the processing

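No paired analysis was possible because each group had 1 library. Of 250 values recomputed for 51 results, 210 stayed within the counting interval, or for counts within 1.5 times, and 40 moved. No ratio whose interval excluded 1 with the settings used above changed direction. Among ratios whose interval held 1 there, that of Rbp4 in δ-like cells did change. Its log2 value was -0.18 (-0.26 to -0.092) with at most 15000 UMIs per cell and 0.089 (0.0098 to 0.168) with doublets kept. The causes were not tested.

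For Rbp4 in β-like cells the log2 ratio was -0.10 with at most 15000 UMIs per cell, -0.71 with hormone and mitochondrial genes out of the total, -0.997 in cells under 1% other hormones, -1.33 without cluster 1 and -0.50 without the β-like clusters under 0.5 of the median UMIs. At most 15000 UMIs gave a Rara ratio of -0.84 (log2) in β-like cells, Aldh1a3 levels of 0.538 CPM (WT) and 13.1 CPM (HFD) and a WT Crabp1 level of 0. It also gave 5175 CPM of Rbp4 in WT δ-like cells and 40.5 CPM of Aldh1a1 and 40.5 CPM of Aldh1a2 in WT ductal-like cells. Rbp4 in δ-like cells was 4679 CPM in HFD with doublets kept and 4594 CPM in WT with at most 10% mitochondrial UMIs.

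With genes of at least 1 UMI, members past 2-fold numbered 3 in β-like, 1 in α-like, 2 in δ-like, 2 in ductal-like and 4 in fibroblast-like cells. At 1.5-fold they numbered 2 in β-like, 1 in endothelial-like and 2 in ductal-like cells. No share of all genes past these cuts stands beside these counts, and they were not read as results about the members.

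Shares of cells with a UMI are given first thinned to 5000 UMIs, then unthinned. For Aldh1a3 in β-like cells they were 0.439% and 1.80% in WT and 5.83% and 13.4% in HFD. For Rbp4 in β-like cells they were 8.73% and 15.3% in WT and 5.38% and 7.23% in HFD. In α-like cells they were 96.1% and 100% in WT and 94% and 90.4% in HFD, and in δ-like cells 100% and 100% in WT and 100% and 99.4% in HFD.

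With doublets kept, no cluster was named endothelial-like, and that class has no value there. Depth limits Crabp1, Rarb and every HFD value of the ductal-like and fibroblast-like classes.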
